A study of Homo sapiens with 8 samples.

Results

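LSD1 occupancy was examined at 5 genes of the YAP-TEAD pathway, YAP1, TEAD1, CYR61 (now CCN1), CTGF (now CCN2) and AXL, in CUT&RUN libraries from MDA-MB-231, a line of human breast cancer cells. CUT&RUN cuts and releases the DNA next to an antibody bound in the nucleus. The groups were parental cells and RCOR2-KO1 cells, in which RCOR2 was knocked out with CRISPR/Cas9, and each group had 2 libraries made with an antibody against LSD1. Both groups were grown in medium with serum and no treatment is named, normal rabbit IgG libraries served as input, and no measurement of RCOR2 itself was in the files. The methods mention mixing several KO clones but do not say whether KO1 is such a mixture or 1 clone. The study repeated CUT&RUN, but nothing says that the 2 libraries came from separate cultures, so the spread between them may be technical. A summit is the single base of highest signal in a peak. It carries the −log10 of the peak caller's p or q value, and it was compared as its percentile within its own list (100 for the strongest). Summits at most 500 bp apart were taken as 1 region, whose percentile in a library is that of its highest summit. The genes were chosen by name, and their regions were those with a summit in a fixed window of hg19: chr11:101971000-102115000 for YAP1, chr11:12685000-12977000 for TEAD1, chr1:86036000-86060000 for CYR61, chr6:132259000-132283000 for CTGF and chr19:41715000-41778000 for AXL. The windows held 49 of the 68148 LSD1 regions of the series.

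LSD1 is a histone demethylase that acts in the CoREST complex, for which RCOR2 and its relatives are the scaffold. In the Hippo pathway, a kinase cascade keeps the coactivator YAP1 out of the nucleus. When the cascade is off, YAP1 enters the nucleus and binds TEAD proteins, which carry the DNA-binding domain that YAP1 lacks. CYR61 and CTGF encode secreted matricellular proteins and AXL a receptor tyrosine kinase, and all of them are widely used as readouts of YAP activity.

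TEAD proteins recognise the letters GGAATG, which were searched on both strands in the 250 bases before the start of transcription. The sequences are from RefSeq on GRCh38.p14, so their positions cannot be set against the hg19 summits, and promoters of YAP1, CTGF and AXL were in the table. Within 2 kb of the first start, as estimated below, YAP1 had an LSD1 region present in all 4 lists. CTGF and AXL had only regions missing from at least 1 list there. The sequences printed are those with a match, and the first AXL start, with 0 matches, is not printed. Capitals mark each match to GGAATG or its complement. The CTGF sequence is chr6:131951373-131951622 (minus strand), that of YAP1 is chr11:102110197-102110446 (plus strand), and that of AXL, at the second of the starts listed for this gene, is chr19:41226505-41226754 (plus strand).
CTGF: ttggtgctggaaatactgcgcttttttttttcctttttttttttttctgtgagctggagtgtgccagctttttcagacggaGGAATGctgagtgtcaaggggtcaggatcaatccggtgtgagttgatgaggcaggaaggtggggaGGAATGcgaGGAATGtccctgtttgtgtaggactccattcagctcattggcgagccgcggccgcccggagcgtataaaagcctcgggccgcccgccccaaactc
YAP1: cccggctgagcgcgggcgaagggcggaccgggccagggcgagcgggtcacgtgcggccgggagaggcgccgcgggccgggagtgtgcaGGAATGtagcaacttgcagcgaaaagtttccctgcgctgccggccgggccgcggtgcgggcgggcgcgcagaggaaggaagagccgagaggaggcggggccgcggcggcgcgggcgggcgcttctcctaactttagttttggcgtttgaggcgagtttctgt
AXL second start: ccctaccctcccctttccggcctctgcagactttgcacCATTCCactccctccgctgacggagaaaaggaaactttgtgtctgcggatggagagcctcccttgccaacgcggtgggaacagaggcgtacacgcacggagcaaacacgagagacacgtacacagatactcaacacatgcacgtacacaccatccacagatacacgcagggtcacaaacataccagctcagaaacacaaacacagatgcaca
The CTGF promoter held 3 matches, which began 169, 104 and 95 bases before the start, where the base next to the start counts as 1. YAP1 held 1 match at 162 bases, the second AXL start held 1 at 212 bases on the opposite strand, and the first AXL start held 0. Of all 35116 promoters of this length, 11.9% held at least 1 match and 29 (0.0826%) held 3 or more. The AP-1 motif TGANTCA, in which N is any base, was in 0 of these 4 sequences and in 6.57% of all promoters. YAP1 had 36 CG dinucleotides, more than 95.1% of promoters, while CTGF and the second AXL start had 13 each. A match describes the letters and shows no bound factor.

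LSD1 summits were found in the windows of all 5 genes, and every window held at least 1 region that was present in all 4 lists. YAP1 had 10 regions, TEAD1 22, CYR61 7, CTGF 4 and AXL 6. Of the 49 regions, 23 (46.9%) were found in all 4 lists, against 52.6% of all regions of the series. Another 11 regions (22.4%) were found in 1 list only, against 21.7%. There were 2 regions (4.08%) in both parental lists and in neither KO1 list, against 4.24%, and 2 (4.08%) in both KO1 lists and in neither parental list, against 3.62%. These shares were close to those of the series, so presence in the lists did not set these windows apart. Regions of all 4 lists were denser than over the genome, with 4.20 per 100 kb in the windows and 1.18 per 100 kb over chromosomes 1 to 22 and X, which also hold sequence without genes. Their median percentile over the 4 libraries was 76.3, against 60.1 for all 35861 regions of all 4 lists, in genes or not. By gene it was 68.5 for TEAD1, 76.2 for YAP1, 82.8 for CTGF, 91.0 for AXL and 92.9 for CYR61. Windows of other genes were not compared, so whether this rank is particular to these genes was not tested.

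**Figure D1:**
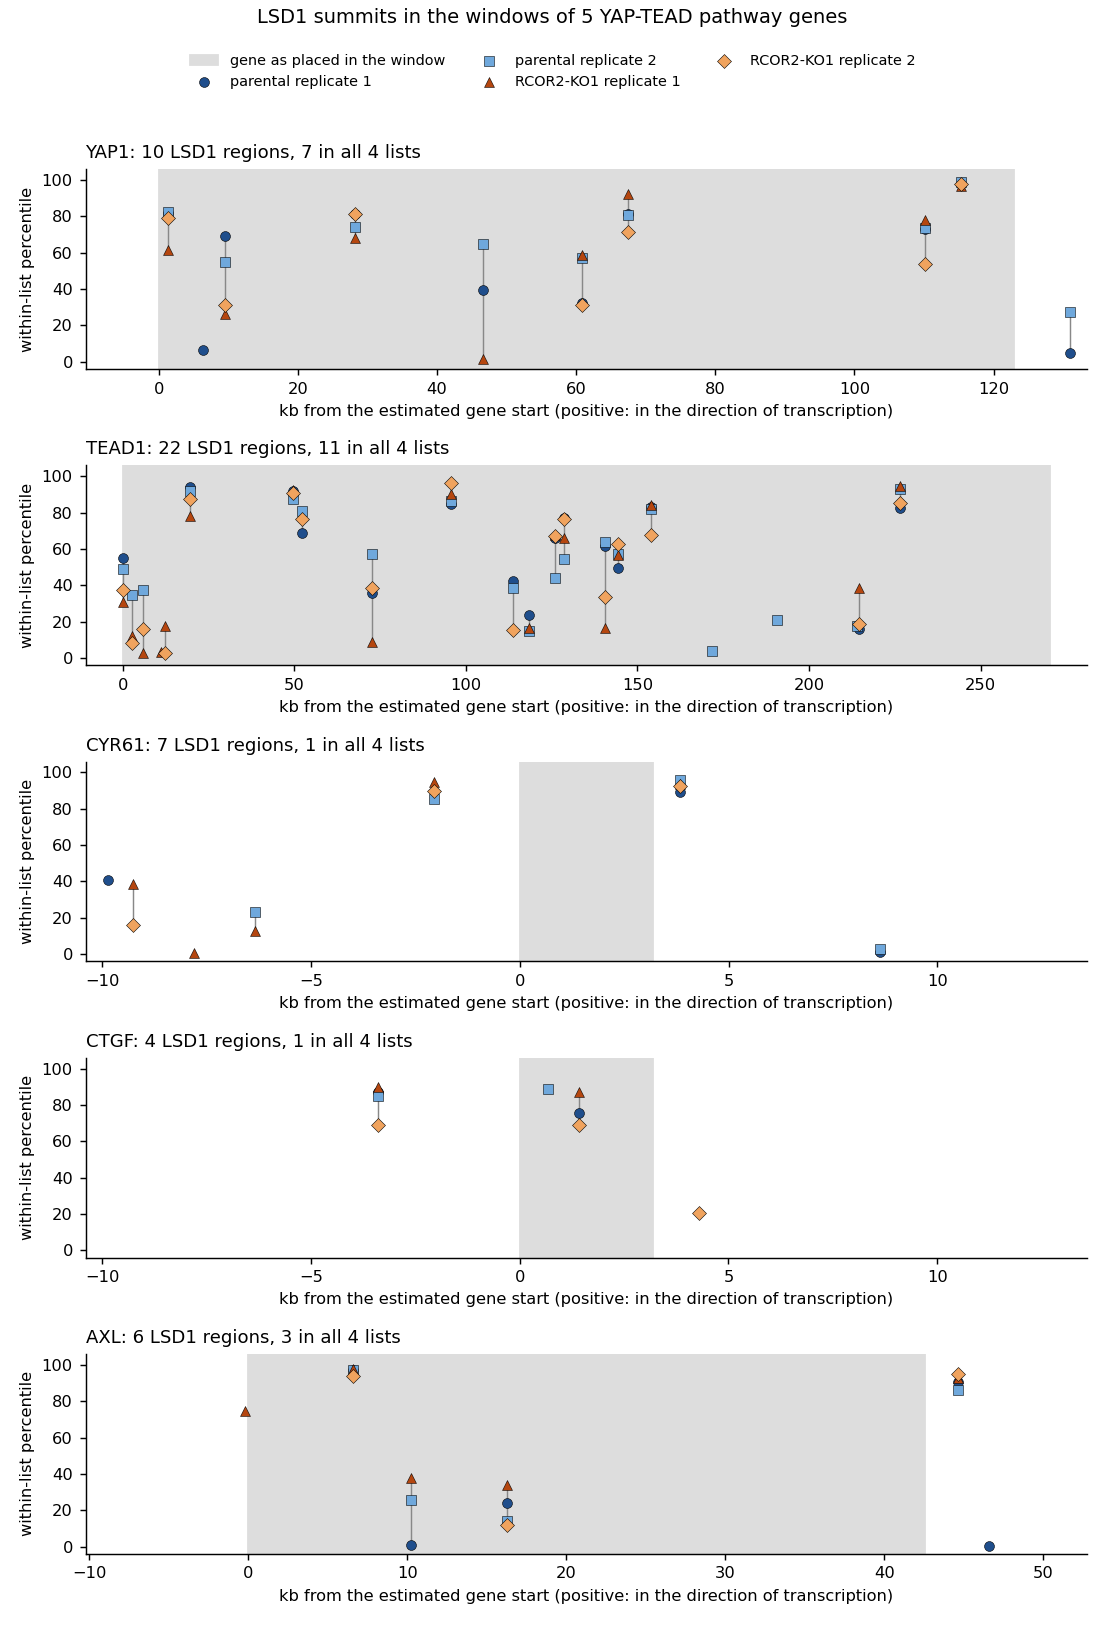
Within-list percentile (0 to 100) of each LSD1 region in each of the 4 libraries against its distance in kb from the estimated gene start, with 1 panel per gene and the gene shaded. On the estimated placement, the 22 TEAD1 regions all lie inside the shaded gene, whereas all 7 CYR61 regions lie outside it.

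No annotation of hg19 was used here. Each gene was therefore placed in the middle of its window by the length that RefSeq gives it on GRCh38.p14. Distances from gene starts are estimates, taken to hold to about 1 kb, an accuracy that was not measured. On this placement 36 of the 49 regions lay inside the 5 genes, and 5 lay within 2 kb of a gene's start. Of these 5, only the regions at the starts of YAP1 and TEAD1 were in all 4 lists.

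The strongest region in the YAP1 window lay near the other end of the gene from its start. It lay on chromosome 11 between 102096773 and 102096896, about 115.3 kb from the start, and ranked at 97.7 and 99.0 in the parental libraries (replicates 1 and 2) and at 97.0 and 97.7 in the KO1 libraries. Its −log10 values were 93.3, 136, 95.5 and 89.2 in the same order. The percentile was thus close to the top of every list. With the strongest AXL region, it was 1 of 2 regions among the 23 of all 4 lists (8.70%) that ranked at or above 90 in every library, against 6.4% of all such regions (a threshold chosen after seeing the data). The genotypes overlapped, with a parental mean of 98.4 ± 0.958 and a KO1 mean of 97.4 ± 0.550 (± SD over n = 2 libraries, here and below).

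At the start of YAP1, a region between 101982780 and 101982875, about 1.32 kb into the gene, ranked at 82.1 and 82.3 in parental cells and at 61.3 and 78.9 in KO1 cells. Each KO1 library was below each parental one, by -12.1 percentile points on average (exact permutation test, two-sided, p = 0.333). With 2 libraries a group, no p of this test can be lower than that. KO1 replicate 1 decided most of this difference, which was -3.28 without it and -20.9 without KO1 replicate 2. A second region between 101990916 and 101991208, about 9.55 kb into the gene, ranked at 69.0 and 54.7 in parental and at 26.1 and 31.1 in KO1 cells. Here the gap between the genotypes was wider than the spread within either, with 61.9 ± 10.1 in parental and 28.6 ± 3.54 in KO1 cells and a difference of -33.2 (exact permutation test, two-sided, p = 0.333). A lower difference was found in 1.69% of all regions of all 4 lists. The region was 1 of 23 looked at, so this share is a description.

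The other 5 YAP1 regions of all 4 lists overlapped between the genotypes. They lay about 28.2, 60.9, 67.5, 110.2 and 115.3 kb from the start and differed by -3.26, 0.153, 0.762, -7.43 and -1.01 percentile points. A region at about 46.6 kb, between 102028057 and 102028100, ranked at 39.5 and 65.0 in parental cells, at 1.51 in KO1 replicate 1, and had no summit in KO1 replicate 2. Past the other end of the gene, a weak region between 102112489 and 102112509 had summits in the parental libraries, at 4.96 and 27.3, and in neither KO1 library. The last of the 10 regions was in parental replicate 1 alone, at 6.29.

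Averaged over its 7 regions of all 4 lists, YAP1 had a percentile of 73.9 and 74.6 in the parental libraries and of 68.8 and 63.6 in the KO1 libraries. Both KO1 means were below both parental means, with a difference of -8.01, while the median over the 7 regions was -3.26. YAP1 lies in a part of chromosome 11 in which regions of all 4 lists ranked lower in KO1 cells. In the 10 Mb bin from 100 to 110 Mb, 102 such regions had a median difference of -6.07, and those from 90 to 100, 110 to 120 and 120 to 130 Mb had medians of -10.0, -9.00 and -9.33. Less the median of its bin, the mean difference at YAP1 was -1.94, at the start -5.99 and at the second region -27.2. In the bin, 29.4% of regions had a lower difference than the one at the start, and 3.92% had a lower one than the second region. The part of this segment in the YAP1 values was not tested.

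TEAD1 encodes the DNA-binding partner of YAP1. Its window, the longest at 292 kb, held the most regions, all 22 of them inside the gene as placed. Per 100 kb it held 7.53 regions, against 6.94 for YAP1, 9.52 for AXL, 16.7 for CTGF and 29.2 for CYR61. These figures include regions missing from some lists. Regions of all 4 lists were similar in density, with 3.77 per 100 kb for TEAD1, 4.86 for YAP1 and 4.76 for AXL. CTGF and CYR61, with 1 such region each, had 4.17. At the start of TEAD1, a region on chromosome 11 between 12695905 and 12695960 ranked at 55.1 and 49.1 in parental and at 30.8 and 37.2 in KO1 cells. The genotypes did not overlap, with 52.1 ± 4.18 in parental and 34.0 ± 4.46 in KO1 cells and a difference of -18.1 (exact permutation test, two-sided, p = 0.333). Leaving out each library in turn gave -21.2 to -14.9. The 10 Mb bin of TEAD1 had a median difference of 1.31 over 192 regions, of which 8.33% had a lower difference than the region at the start.

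The strongest TEAD1 regions lay deeper in the gene. The region at about 49.7 kb, between 12745584 and 12745591, ranked at 91.8 and 87.6 in parental and at 92.5 and 91.0 in KO1 cells, so the genotypes overlapped, and its 4 summits lay within 7 bp of each other. The region at about 95.7 kb, between 12791442 and 12791731, ranked at 84.6 and 86.2 in parental and at 90.1 and 96.2 in KO1 cells. This was 1 of 2 TEAD1 regions in which each KO1 library exceeded each parental one, by 7.74 points (exact permutation test, two-sided, p = 0.333), and by 4.69 points without KO1 replicate 2. At about 226.5 kb, a region between 12922262 and 12922348 ranked at 82.6 and 93.2 in parental and at 94.7 and 85.1 in KO1 cells, which overlapped.

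The largest difference among the 23 regions of all 4 lists was also in TEAD1. The region at about 140.4 kb, between 12835982 and 12836538, ranked at 61.3 and 63.9 in parental and at 16.5 and 33.7 in KO1 cells, a difference of -37.5 (exact permutation test, two-sided, p = 0.333). A lower difference was found in 0.965% of all regions of all 4 lists, and in 1.04% of those in its bin. The region was picked as the largest difference of the 23, so these shares are descriptions. Without KO1 replicate 2 the difference was -46.1, and without KO1 replicate 1 it was -28.9. Its 4 summits spanned 556 bp, so they may not mark 1 site. The region about 4 kb further on, between 12840047 and 12840386, ranked at 49.3 and 57.2 in parental and at 56.7 and 62.7 in KO1 cells and overlapped.

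At about 19.5 kb, a region between 12715231 and 12715515 ranked at 94.3 and 92.1 in parental and at 78.1 and 87.5 in KO1 cells, which did not overlap and differed by -10.4. Without KO1 replicate 1 the difference was -5.72. At about 126.0 kb, a region between 12821799 and 12821821 ranked at 66.0 and 43.9 in parental and at 67.5 and 67.1 in KO1 cells. Each KO1 library exceeded each parental one there, by 12.3 points, but parental replicate 1 was 1.34 points below the KO1 mean and parental replicate 2 was 23.4 points below it. The p of the exact permutation test, two-sided, was 0.333 in both cases. The region at about 72.5 kb differed by -22.7, yet the genotypes overlapped, with 35.9 and 56.9 in parental and 8.92 and 38.4 in KO1 cells.

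Over its 11 regions of all 4 lists, TEAD1 had a mean percentile of 71.0 and 69.7 in the parental libraries and of 62.4 and 67.5 in the KO1 libraries. The mean difference was -5.39, whereas the median over the 11 regions was 2.02, so mean and median differed in sign. With only the upper 50% of each list kept, the mean difference was 0.0344. In number, 5 regions were lower and 6 were higher in KO1 cells. The remaining 11 regions were missing from at least 1 list. Among them, the region at about 52.2 kb had no summit in KO1 replicate 1 while it ranked at 68.9 and 81.1 in parental cells and at 76.6 in KO1 replicate 2. Between about 2.73 and 12.3 kb from the start lay 4 weak regions, none with a summit in parental replicate 1 and none above 37.5 in any library. One of them, between 12707970 and 12708399, was found in both KO1 libraries, at 17.4 and 2.96, and in neither parental library. The 4 TEAD1 regions found in 1 list only ranked at 20.7 or lower.

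**Figure D2:**
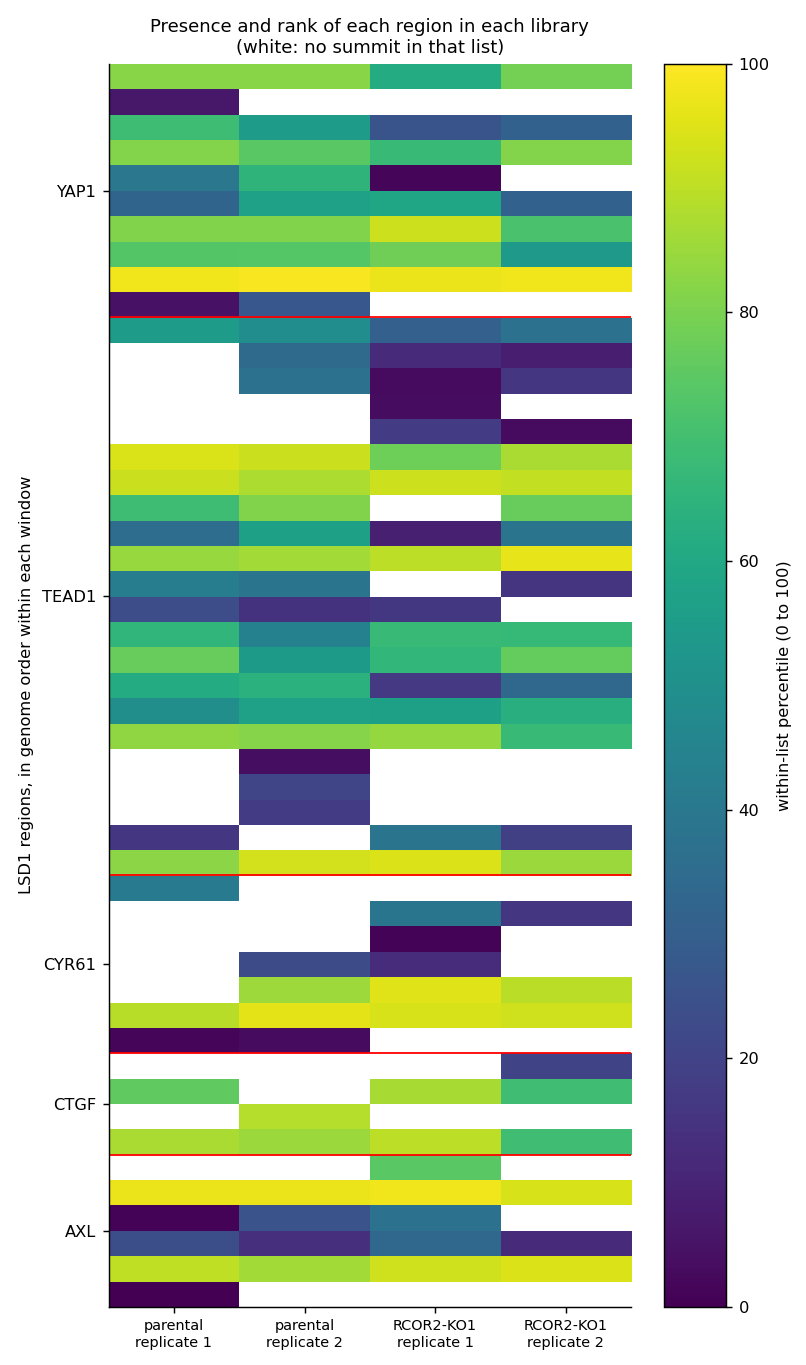
Within-list percentile (colour, 0 to 100) of the 49 LSD1 regions (rows, by gene and in genome order) in the 4 libraries (columns), with white where a list had no summit. Of the 49 regions, 23 are coloured in all 4 columns, among them 7 of 10 for YAP1 and 1 of 7 for CYR61.

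CYR61, a short gene, had no region within 2 kb of its start on this placement. Its window also holds part of DDAH1, a gene that RefSeq places next to CYR61 and that encodes an enzyme degrading methylated arginines. The nearest region to the CYR61 start, between 86044309 and 86044375 on chromosome 1, lay about 2.06 kb before it and only about 0.498 kb before the estimated start of DDAH1, so it cannot be assigned to either gene by position. It ranked at 85.4 in parental replicate 2 and at 94.9 and 89.6 in the KO1 libraries, and parental replicate 1 had no summit there. Just past the end of CYR61 as placed, by about 0.646 kb, a region between 86050224 and 86050258 was the only one of this window in all 4 lists. That distance is less than the 1 kb to which positions are taken to hold, so the region may lie inside the gene. It ranked at 89.4 and 95.7 in parental and at 93.8 and 92.6 in KO1 cells, with −log10 values of 56.6, 94.6, 75.8 and 62.3. Its summits lay within 34 bp and the genotypes overlapped, with 92.6 ± 4.46 in parental and 93.2 ± 0.814 in KO1 cells and a difference of 0.606. The remaining CYR61 regions were weak. One between 86037122 and 86037130, inside DDAH1 as placed, was in both KO1 libraries only, at 38.7 and 15.9, and one between 86054901 and 86055181 was in both parental libraries only, at 1.25 and 2.85. A region between 86039840 and 86040290 was in parental replicate 2, at 23.4, and in KO1 replicate 1, at 12.6. Single summits were at 40.9 in parental replicate 1 and at 0.869 in KO1 replicate 1.

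CTGF, whose promoter sequence with 3 TEAD motifs is printed above, had LSD1 summits both in the gene and before it. Inside the gene, about 1.43 kb from the start, a region on chromosome 6 between 132271153 and 132271192 ranked at 75.7 in parental replicate 1 and at 87.1 and 69.1 in the KO1 libraries. Parental replicate 2 had its summit at 132271930, about 0.669 kb from the start, at 89.0, and at the 500 bp distance this counted as a separate region of 1 list. With a distance of 1000 bp they formed 1 region of all 4 lists that spanned 777 bp, with 82.3 in parental and 78.1 in KO1 cells and a difference of -4.21, and the genotypes overlapped. The region before the gene, between 132275913 and 132276056 and about 3.39 kb from the start, was in all 4 lists and ranked at 87.2 and 85.1 in parental and at 89.9 and 69.1 in KO1 cells. KO1 replicate 1 was thus the highest and KO1 replicate 2 the lowest of the 4 libraries, and the difference of -6.64 became 3.72 without KO1 replicate 2. A last region, past the end of the gene, was found in KO1 replicate 2 only, at 20.4. The window lies within CCN2-AS1, a long noncoding RNA that RefSeq lists over the gene, and LSD1 summits carry no strand.

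AXL held the strongest region of these windows beside that of YAP1, and it lay inside the gene and not at its first start. The region on chromosome 19 between 41731745 and 41731901 lay about 6.60 kb into the gene. The second start that RefSeq gives for AXL is 7.53 kb from the first, and its promoter sequence is the one printed above. This region ranked at 97.0 and 97.0 in parental and at 97.8 and 94.0 in KO1 cells, with −log10 values of 87.2, 105, 104 and 67.3. The genotypes overlapped, with 97.0 ± 0.00811 in parental and 95.9 ± 2.70 in KO1 cells and a difference of -1.11. At the first start, a summit at 41725032 was found in KO1 replicate 1 only, at 74.5, the highest rank of a summit found in 1 list beside that of CTGF. Weak regions followed at about 10.3 and 16.3 kb. The first was at 0.900 and 25.8 in parental cells, at 37.9 in KO1 replicate 1 and absent from KO1 replicate 2, and the second was at 24.0 and 14.1 in parental and at 33.6 and 11.7 in KO1 cells.

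The window of AXL runs past its end into HNRNPUL1, a gene for an RNA-binding protein that RefSeq lists next to it. A region between 41769762 and 41769945, about 1.29 kb inside HNRNPUL1 as placed, ranked at 90.3 and 86.0 in parental and at 92.7 and 94.9 in KO1 cells. Each KO1 library exceeded each parental one, with 88.2 ± 3.07 in parental and 93.8 ± 1.58 in KO1 cells and a difference of 5.63 (exact permutation test, two-sided, p = 0.333), which was 3.46 without parental replicate 2. On this placement it belongs to the neighbour rather than to AXL. The last region of the window was in parental replicate 1 only, at 0.376. Over its 3 regions of all 4 lists AXL differed by 2.73, and the 2 inside the gene alone differed by 1.28, a comparison added after seeing the data. This value rested on single libraries: over the regions shared by the other 3 lists it was -1.18 without KO1 replicate 1, 11.1 without KO1 replicate 2, 5.11 without parental replicate 1 and 0.360 without parental replicate 2.

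**Figure D3:**
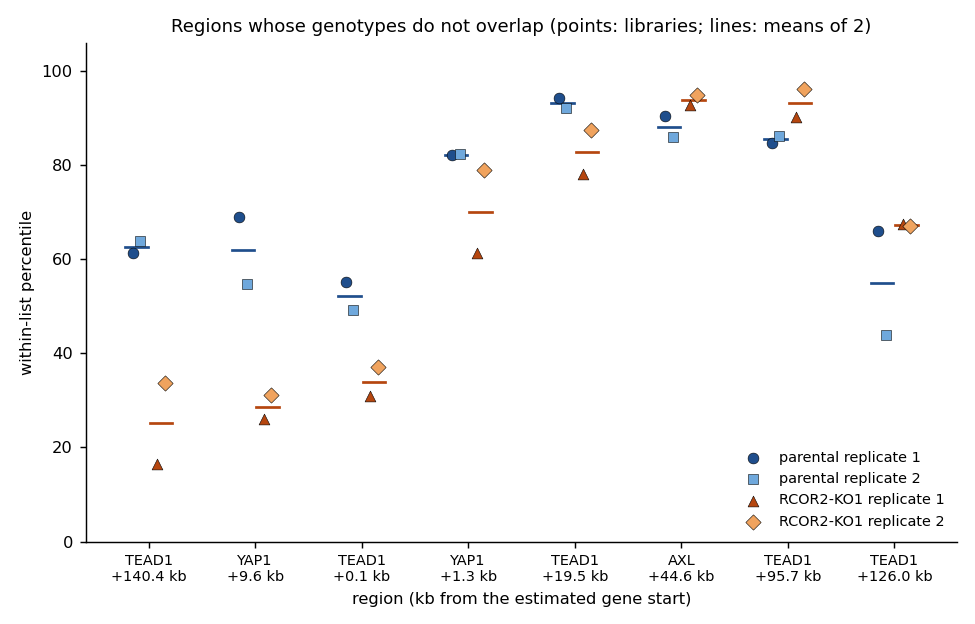
Within-list percentile in the 4 libraries for the 8 regions of all 4 lists in which the genotypes did not overlap, ordered by their difference and named by gene and kb from the estimated start, with a line at the mean of 2 libraries. KO1 libraries are lower in the first 5 regions, from -37.5 at TEAD1 to -10.4 at TEAD1, and higher in the other 3. Of these 3, that of the AXL window lies in HNRNPUL1 as placed.

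Across the windows, each KO1 library was below each parental one in 5 of the 23 regions of all 4 lists (21.7%), against 22.4% of all such regions of the series. They were above in 3 of the 23 (13.0%), against 19.6%. The count of lower regions was near that of the series, and the count of higher regions was below it by a number of regions too small to read further. With 1 library left out, the balance between lower and higher regions depended on the library. Without KO1 replicate 1, 13 of the 25 regions of the 3 lists were lower and 4 were higher, against 37.8% and 33.4% of such regions of the series. Without KO1 replicate 2, 9 of 26 were lower and 13 were higher, against 37.2% and 32.6%. Without parental replicate 1, 10 of 26 were lower and 6 higher, against 42.3% and 29.3%, and without parental replicate 2, 7 of 24 were lower and 7 higher, against 31.4% and 39.9%. The windows thus held more lower than higher regions without KO1 replicate 1 and more higher than lower ones without KO1 replicate 2. The cause was not tested. All 5 lower regions were in YAP1 and TEAD1, which also held 18 of the 23 regions. In the bin of YAP1, 34.3% of regions were lower and 7.84% higher, and in that of TEAD1 18.2% were lower and 24.5% higher. Over all 23 regions the differences ranged from -37.5 to 12.3 with a median of -1.01, against a median of -0.578 for the series, where 5% of regions were below -24.7 and 5% above 24.0.

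**Figure D4:**
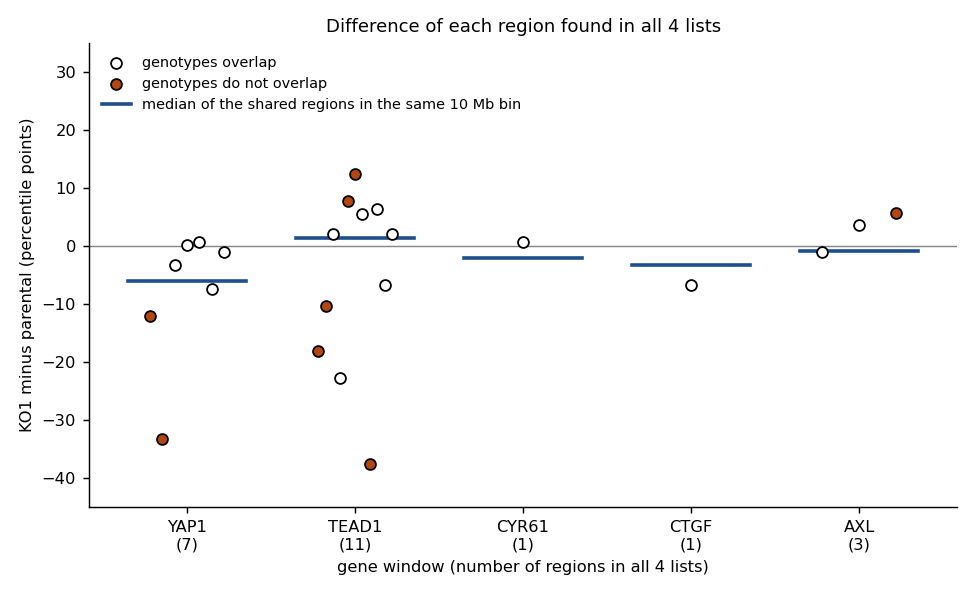
Difference of each of the 23 regions of all 4 lists (KO1 minus parental, in percentile points) by gene window, with filled points where the genotypes did not overlap and a line at the median of the regions of all 4 lists in the same 10 Mb bin. For YAP1 the line is at -6.07 and 4 of the 7 points lie above it.

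In parental cells the mean percentile over the regions of all 4 lists was 92.6 ± 4.46 for CYR61, 86.2 ± 1.48 for CTGF, 74.2 ± 0.512 for YAP1, 70.3 ± 0.931 for TEAD1 and 68.1 ± 3.36 for AXL. In KO1 cells the order was another, with 93.2 ± 0.814 for CYR61, 79.5 ± 14.7 for CTGF, 70.8 ± 5.53 for AXL, 66.2 ± 3.67 for YAP1 and 64.9 ± 3.62 for TEAD1. CYR61 and CTGF rest on 1 region each and AXL on 3. In KO1 cells every other gene lay within the wide spread of CTGF, and YAP1 lay within that of AXL. YAP1 and TEAD1 each lay within the spread of the other. CTGF itself lay within the spread of neither of its neighbours in this order. In parental cells TEAD1 lay within the spread of AXL, but AXL did not lie within that of TEAD1. In each genotype the strongest regions were those of YAP1 at about 115.3 kb and AXL at about 6.60 kb, both far from the first start of the gene. Summit positions of the 23 regions differed by a median of 143 bp across the 4 libraries, against 103 bp for the series.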

How the data were processed

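MDA-MB-231 cells were profiled by CUT&RUN for LSD1. Per the submitters' processing notes, the authors used FastQC 0.11.2, Bowtie2 2.3.3.1, Picard and MACS2 2.1.0 on hg19. Roles and thresholds are not given in the sources used here. The deposited lists hold 1 summit of 1 bp per peak with a −log10 p or q value, called in each library by itself. They hold 47354 to 54467 summits but only 4285 to 6170 distinct values, so ranks are tied, and the lowest value of a list was 1.31 to 1.40. The lists give no read depth, so counting intervals were not computed.

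Percentiles, regions and differences were computed with Python 3.11.15, pandas 2.3.3 and numpy 2.4.6, and the steps were tested on simulated data. Regions are on chromosomes 1 to 22 and X, and 1 summit elsewhere was left out. Medians are over bins of 10 Mb. Single regions were compared by the exact permutation test over libraries, two-sided, and gene windows were only described. The genes, windows and lists were chosen with earlier results of these data known. Regions named were those at gene starts, the strongest, the most different and those of 1 genotype, and all regions of windows with 10 or fewer. Other genes of the pathway need an annotation of hg19 and were not analysed here. RefSeq (GRCh38.p14) gave names, lengths, neighbours and promoters (3 of 5 genes matched).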

Additional observations from a re-analysis of the deposited data

How the results depend on the processing

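Joining distances of 250 and 1000 bp and lists cut to the shortest moved no count by over 1.5 times and no gene's mean difference by over 1 SD. At 250 bp, however, the TEAD1 region at about 140.4 kb was no longer 1 region of all 4 lists. The regions lower in KO1 cells were then 4, and the TEAD1 difference was -3.14. Percentiles over regions of all 4 lists, computed for the differences alone, moved none of them by over 1 SD, and windows widened by 10 kb, computed for the counts alone, moved none by over 1.5 times. The mean over summits changes nothing here, since each library had 1 summit per region. Keeping the upper 50% of each list left 28 regions, 15 of them in all 4 lists, 2 of 1 genotype and 2 lower in KO1 cells. It moved the YAP1 difference to -4.60 and turned that of TEAD1 to 0.0344. Less the median of its bin, the YAP1 difference was -1.94. With each library left out in turn, the regions of 1 genotype were 8 to 10, those lower in KO1 cells 7 to 13 and those higher 4 to 13. A genotype left with 1 library makes each of these counts easier to meet, so they cannot be set against those of 4 lists. Series shares for lower and higher regions are given above. They were not computed for regions of 1 genotype in 3 lists or for the upper 50%. The balance turned with the KO1 library left out, with 13 lower and 4 higher without replicate 1 and 9 lower and 13 higher without replicate 2, and the cause was not tested. The regions were 46 to 48 and those of all remaining lists 24 to 26. The differences ran from -11.1 to -8.37 for YAP1, from -8.06 to -4.18 for TEAD1, from 0.0307 to 3.76 for CYR61, from -17.0 to 3.72 for CTGF and from -1.18 to 11.1 for AXL. Each value is over the regions shared by the 3 lists left, so the set of regions changed with the library left out. The YAP1 range therefore does not hold the -8.01 of all 4 lists. Without KO1 replicate 2 the YAP1 region at about 46.6 kb entered, at 39.5 and 65.0 in parental and 1.51 in KO1 cells. These ranges thus do not show how far the differences of all 4 lists rest on 1 library.

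With the replicate number as a block, the mean of the paired differences equals the unpaired one (-8.01 for YAP1). The pairs gave -5.06 and -11.0 for YAP1, -8.61 and -2.17 for TEAD1, 4.33 and -3.12 for CYR61, 2.67 and -16.0 for CTGF, and 4.27 and 1.20 for AXL. Deviations of libraries with the same number had a correlation of 0.00722 over the 35861 regions, so their ranks showed no pattern shared by number. This cannot show whether such libraries shared a culture or a run.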
